A study of Mus musculus with 18 samples.

Results

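The genes described here are 10 components of the Sonic hedgehog pathway, Shh, Hhip, Ptch1, Smo, Cdon, Boc, Gas1, Gli1, Gli2 and Gli3, measured in embryonic mouse palate. Members were all probe sets to which the platform annotation gives 1 symbol equal to one of these names, which found 26 probe sets for the 10 genes among 34945 probe sets with 1 symbol and 18193 genes. RNA of palate at embryonic day 15.5, in mice of strain C57BL/6J, was hybridised to 18 Affymetrix 1-colour arrays. The 6 mutant posterior arrays hold posterior palate of K14-Cre;Tgfbr2 fl/fl embryos, in which a keratin 14 promoter drives Cre in epithelial cells and so deletes the floxed receptor gene there. The 6 control posterior and 6 control anterior arrays hold posterior and anterior palate of Tgfbr2 fl/fl embryos without Cre, so the floxed alleles are common to all 3 groups. The design text places controls and mutants in separate litters, so litter and genotype cannot be told apart, and it states 5 samples per group where the labels list 6; all 6 were used. No source tells single embryos from pools, and p-values therefore measure the spread between these samples.

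Hedgehog ligands are secreted proteins that bind PTCH1, a membrane protein that otherwise holds the signal transducer SMO inactive. CDON, BOC and GAS1 are co-receptors that help PTCH1 bind the ligand, HHIP is a membrane protein that captures it, and the zinc finger proteins GLI1, GLI2 and GLI3 carry the signal to the genome, GLI3 largely as a repressor when no ligand is bound. Ptch1, Gli1 and Hhip are themselves induced by the pathway, whereas Cdon, Boc and Gas1 are reduced by it in several embryonic tissues. In the palate Shh is made by the oral epithelium, above all in the rugae, and acts on the mesenchyme beneath.

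RefSeq's promoter table (GRCm38.p6) held a window for 7 of the 10 genes. The 250 bases before the annotated start are shown for Cdon, Gli3 and Gli2, the genes whose levels the results below turn on, so that their base composition can be compared; capitals mark CG dinucleotides and each sequence is given on the gene's own strand. The Cdon window lies at chr9:35451826-35452075 on the plus strand, inside the span that the gene table gives for Cdon, so it belongs to 1 of several possible starts. The Gli3 window lies at chr13:15463473-15463722 on the plus strand, and the Gli2 window at chr1:119053620-119053869 on the minus strand.
Cdon: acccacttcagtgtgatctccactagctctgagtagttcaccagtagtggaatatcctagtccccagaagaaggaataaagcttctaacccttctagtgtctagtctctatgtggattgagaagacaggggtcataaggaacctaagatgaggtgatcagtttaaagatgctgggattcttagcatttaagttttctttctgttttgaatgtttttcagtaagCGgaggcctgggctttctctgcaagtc
Gli3: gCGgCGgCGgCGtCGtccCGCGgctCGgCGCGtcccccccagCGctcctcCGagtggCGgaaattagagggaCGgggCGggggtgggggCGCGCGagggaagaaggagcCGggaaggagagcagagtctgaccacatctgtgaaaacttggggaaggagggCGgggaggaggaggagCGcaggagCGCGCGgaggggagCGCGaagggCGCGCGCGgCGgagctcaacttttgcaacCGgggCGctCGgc
Gli2: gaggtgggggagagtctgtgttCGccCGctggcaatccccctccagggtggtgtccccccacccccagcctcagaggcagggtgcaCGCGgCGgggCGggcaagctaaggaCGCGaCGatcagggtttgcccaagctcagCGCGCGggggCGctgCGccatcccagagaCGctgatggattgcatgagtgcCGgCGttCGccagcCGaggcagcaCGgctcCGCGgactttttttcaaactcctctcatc
The Cdon window held 1 CG dinucleotide at 42.8% G and C, against 34 at 72.8% in the Gli3 window and 22 at 67.2% in the Gli2 window, where the median over 32851 windows of this length was 6 CG dinucleotides at 52.4%. The GLI consensus GACCACCCA was searched on both strands with at most 1 mismatch. These letters were in none of the 7 windows, while 5.79% of all windows held such a match and 0.225% an exact one.

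Values are the deposited RMA signals on a log2 scale, so a difference of 1 is a 2-fold change. The brightest probe set stood for its gene, and levels of different genes are not compared because probe sets differ in response. Array means were 6.35 to 6.37 on mutant arrays 1 to 3 and 6.26 to 6.28 on all other arrays, so a shift of these 3 arrays remained after normalization. The median gene averaged 7.38. Skeletal muscle markers were higher in control posterior than in control anterior palate for 13 of 13 genes, and the mean of 15 epithelium markers was 10.90 or more on every array except mutant array 1, at 9.13. Hybridisation spike-ins split the arrays by number, with 11.1 to 11.7 on mutant arrays 1 to 3 and 10.4 to 10.5 on mutant arrays 4 to 6; the labels do not name these sets. Labelling spike-ins lay at 7.18 to 8.84 on mutant posterior arrays, below all control posterior arrays, at 9.35 or more, so labelling and genotype cannot be told apart. The median SD over genes was 0.233 among mutant posterior arrays, 0.128 among control posterior arrays and 0.152 among those of control anterior palate. For the targeted gene Tgfbr2, the brightest probe set gave 11.01 ± 0.27 in mutant posterior and 10.46 ± 0.20 in control posterior palate (SD, n = 6 each). It was called higher in the mutants, by 0.55 (limma, adjusted p = 0.00879), a call lost in 3 of 30 alternatives. Its other probe sets differed by 0.24 and -0.10 and were not called. The deletion is limited to epithelium and the position of the probes was not examined, so this does not check the labels.

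The first comparison asked which pathway genes differed between mutant and control posterior palate. The co-receptor gene Cdon was 1.83-fold higher in the mutants. Its relative Boc was 1.34-fold and Gli3 1.31-fold higher, with calls that depended on the setting, while Shh and its target genes Ptch1, Gli1 and Hhip did not pass the test in either direction. In all, 3 of 10 members were called higher and 0 lower at an adjusted p under 0.05 (limma over all 18193 genes), against a background of 13.5% of genes called either way and 7.73% called higher. Cdon was the 1 member still called with the 4 sets of arrays as a random block (estimated correlation 0.26), where Boc had an adjusted p = 0.113 and Gli3 an adjusted p = 0.190. It was also the 1 member still called with each array centred on its median or on its 75th percentile. Of all calls, 57.5% were higher, against 38.5% and 38.2% with these centrings. The members' median difference was 0.22, against 0.04 over all genes. Over single probe sets, 5 of 26 were called, 5 of them higher (3 genes), where 10.7% of all probe sets were called and 6.44% called higher. At an unadjusted p under 0.05, Smo joined these 3 and 0 members were lower.

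**Figure D1:**
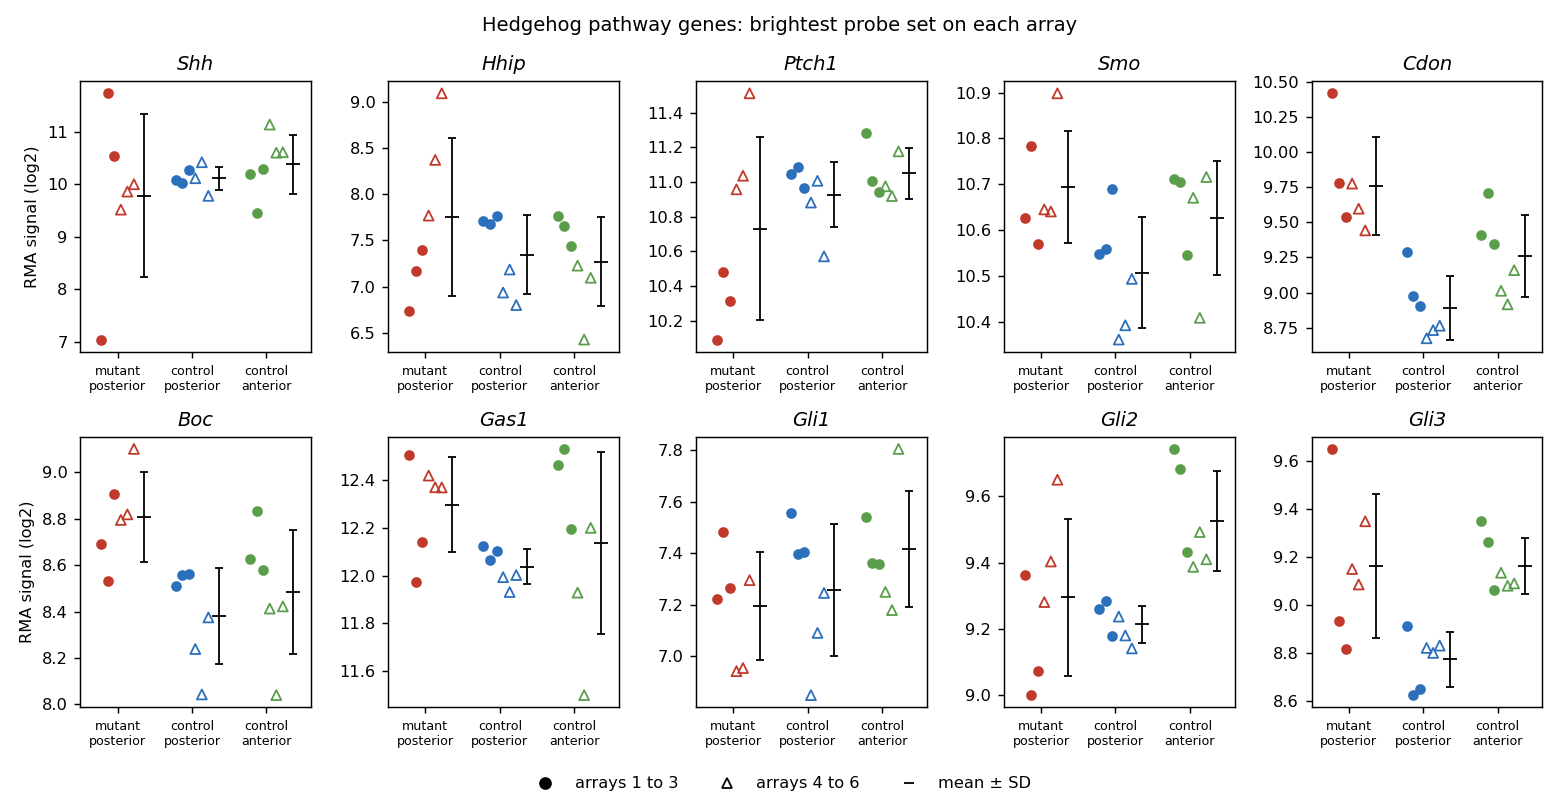
RMA signal (log2) of the brightest probe set of each of the 10 genes on every array, with mutant posterior, control posterior and control anterior arrays from left to right; filled circles are arrays 1 to 3, open triangles arrays 4 to 6, and bars the mean ± SD (n = 6). For Cdon all 6 mutant posterior arrays lie above the highest control posterior array at 9.29, while for Shh the mutant posterior arrays run between 7.05 and 11.73.

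Among the ligand and its antagonist, Shh gave 7.05, 9.93 and 11.73 (lowest, median and highest) in mutant posterior palate, against 9.78, 10.10 and 10.42 in control posterior palate. The control posterior range lay wholly inside the mutant posterior range, which was far wider. The difference was -0.33 (SE 0.51, adjusted p = 0.714), and its 95% interval, here and below without adjustment for the number of genes, ran between -1.40 and 0.73, so a level 2-fold lower in the mutants lay within it. The lowest value, 7.05, came from mutant array 1, the array whose epithelium markers averaged 9.13; without this array the difference was 0.21 (adjusted p = 0.723). The second probe set of Shh was dim, between 4.11 and 4.90 on the posterior arrays, and differed by -0.03. In whole tissue, fewer cells of a type and less RNA per cell cannot be told apart.

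Shh and the epithelium markers varied together over the arrays. The deviations of Shh from its group means correlated with those of the epithelium marker mean at r = 0.92 over 18 arrays, a description in which mutant array 1 weighs heavily. Of the 15 markers 14 had a difference below 0 between mutant and control posterior palate, with a median of -0.44 against 0.04 over all genes, and 1 was called lower, the claudin gene Cldn6. Their mean lay between 9.13 and 11.77 on mutant posterior and between 11.15 and 11.57 on control posterior arrays. With this mean as a covariate Shh differed by 0.34 between the genotypes (adjusted p = 0.361). Over all genes, the 5 whose deviations were most like those of Shh were Has3, which makes hyaluronan (r = 0.97), Sptssb, a subunit of serine palmitoyltransferase (0.97), Rnf43, a ubiquitin ligase that removes WNT receptors (0.96), Lypd6b (0.96) and the ligand gene Wnt6 (0.96). Without mutant arrays 1 and 2, the arrays farthest from the median, these correlations were 0.77 to 0.88.

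**Figure D2:**
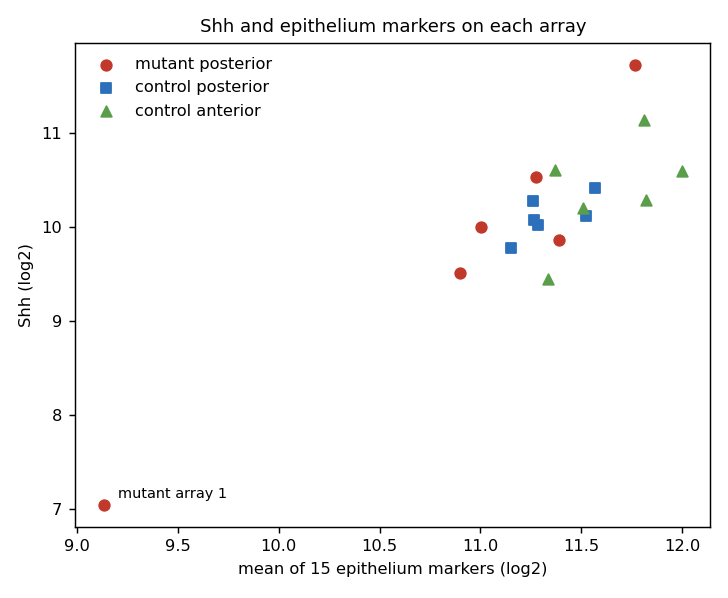
Shh (log2, vertical axis) against the mean of 15 epithelium markers (log2, horizontal axis) on each of the 18 arrays, by group. Mutant array 1 lies apart, at 7.05 for Shh and 9.13 for the markers, and every other array has a marker mean of 10.90 or more.

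Hhip, whose product captures the ligand, gave 6.73, 7.58 and 9.09 in mutant posterior and 6.80, 7.43 and 7.77 in control posterior palate. The mutant posterior range enclosed the control posterior range, and the difference was 0.41 (SE 0.33, adjusted p = 0.450). Hhip was 6.73 to 7.39 on mutant arrays 1 to 3 and 7.77 to 9.09 on mutant arrays 4 to 6, sets that did not overlap. Among control posterior arrays the sets lay the other way round, at 7.67 to 7.77 on arrays 1 to 3 and 6.80 to 7.18 on arrays 4 to 6. With mutant arrays 4 to 6 against all control posterior arrays Hhip was higher by 1.07 (adjusted p = 0.0344), and with mutant arrays 1 to 3 it differed by -0.25 (adjusted p = 0.510). Its other probe sets differed by 0.39, 0.36 and -0.03 over all arrays, none of them called.

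Among receptors, Ptch1, which encodes the ligand's receptor, gave 10.09, 10.72 and 11.51 in mutant posterior and 10.57, 10.99 and 11.09 in control posterior palate, a difference of -0.19 (SE 0.18, adjusted p = 0.521). The mutant posterior arrays fell in 2 separate ranges, 10.09 to 10.48 on arrays 1 to 3 and 10.96 to 11.51 on arrays 4 to 6, and the first of these lay below every control posterior array. With mutant arrays 1 to 3 alone Ptch1 was lower by a log2 difference of -0.63 (adjusted p = 0.00807), and with arrays 4 to 6 alone it differed by 0.24 (adjusted p = 0.275). The part of the array sets in these differences was not tested. The other Ptch1 probe sets were dim, at most 5.79 on the posterior arrays, and differed by -0.06 and -0.30 over all arrays without a call.

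Ptch1 was most like Oxct1, a mitochondrial enzyme of ketone use (r of deviations = 0.96 over 18 arrays), Epha7, an ephrin receptor (0.95), Tnfrsf19, a tumour necrosis factor receptor family member (0.93), Anln, which encodes the cytokinesis protein anillin (0.93), and Ptgfrn (0.92). Without mutant arrays 1 and 6 these were 0.87 to 0.94. Smo, the signal transducer, gave 10.57, 10.64 and 10.90 in mutant posterior and 10.36, 10.52 and 10.69 in control posterior palate, with overlap and a difference of 0.19 (SE 0.08, adjusted p = 0.114). A second bright Smo probe set had the opposite sign, -0.10 (adjusted p = 0.641), so the Smo probe sets disagreed.

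The largest difference of the 10 genes was in a co-receptor. Cdon read 10.42, 9.78, 9.54, 9.78, 9.60 and 9.44 on mutant posterior arrays 1 to 6, against 9.29, 8.98, 8.90, 8.67, 8.73 and 8.76 on control posterior arrays 1 to 6. Every mutant posterior array was above every control posterior array, a separation that 3.52% of all genes showed in this direction. Group means were 9.76 ± 0.35 in mutant posterior and 8.89 ± 0.22 in control posterior palate (SD, n = 6 each), a difference of 0.87 (SE 0.16, 95% interval 0.53 to 1.20, adjusted p = 0.00209). The highest value was on mutant array 1. With any 1 array left out the adjusted p stayed between 0.00188 and 0.00716. A dimmer probe set of Cdon, at 5.64 ± 0.13 in mutant posterior and 5.42 ± 0.09 in control posterior palate, was higher by 0.22 (adjusted p = 0.0491 over all probe sets). Of 30 alternative settings the call of Cdon was lost in 1, arrays 1 to 3 of both groups, where the difference was 0.86 (adjusted p = 0.108).

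CDON and BOC also act in skeletal muscle differentiation, and the muscle markers were therefore set beside these values. Of 13 muscle markers 12 had a difference above 0 between mutant and control posterior palate, with a median of 0.78 against 0.04 over all genes. Of them 1 was called higher, the creatine kinase gene Ckm, and their mean lay between 9.41 and 12.1 on mutant posterior and between 9.45 and 10.7 on control posterior arrays. With this mean as a covariate Cdon was higher by 0.83 (adjusted p = 0.0116); with the epithelium mean as a covariate it was higher by 0.71 (adjusted p = 0.00177), and with the mesenchyme mean by 0.75 (adjusted p = 0.00674). Boc, with the same 3 covariates, was higher by 0.52 (muscle, adjusted p = 0.0238), 0.39 (epithelium, adjusted p = 0.0643) and 0.25 (mesenchyme, adjusted p = 0.0740), so that the call remained with the muscle mean alone.

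Boc gave 8.53, 8.81 and 9.10 in mutant posterior and 8.04, 8.44 and 8.56 in control posterior palate, with every mutant posterior array above the control posterior mean and a slight overlap of the groups. The difference was 0.43 (SE 0.13, adjusted p = 0.0317), and a second bright Boc probe set gave 0.46 (adjusted p = 0.0306 over all probe sets). The call of Boc was lost in 14 of 30 alternatives, among them each removal of control posterior array 4, 5 or 6 or of mutant array 3 or 6 (adjusted p = 0.0581 to 0.0835), and centring on the median or the 75th percentile (0.0708 and 0.0513). Deviations of Boc from its group means correlated with those of the mesenchyme and endothelium marker means at r = 0.78 each and of the cartilage and bone marker mean at 0.70, over 18 arrays that share the same sets. Gas1, which encodes a membrane-anchored co-receptor, gave 11.97, 12.37 and 12.50 in mutant posterior and 11.93, 12.03 and 12.12 in control posterior palate. The difference was 0.26 (SE 0.14, adjusted p = 0.233), with 5 of 6 mutant posterior arrays above the control posterior mean. With mutant arrays 4 to 6 alone Gas1 was higher by 0.35 (adjusted p = 0.00518).

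The 5 genes whose deviations were most like those of Cdon were Arhgef7 and Rapgef1, exchange factors of small GTPases (r = 0.91 and 0.90 over 18 arrays), Smc6, a subunit of a chromosome maintenance complex (0.88), Amotl2, an angiomotin (0.88), and Aoc3, an amine oxidase (0.87). Without mutant array 1 and control anterior array 2 these were 0.71 to 0.81. Of the 5, Arhgef7 was higher in mutant posterior palate by 0.51 (adjusted p = 0.00285) and Aoc3 by 1.04 (adjusted p = 0.0288); Rapgef1, Smc6 and Amotl2 differed by 0.29, 0.16 and 0.34 and were not called.

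Among the transcription factors, Gli1, a direct target and activator of the pathway, gave 6.94, 7.24 and 7.48 in mutant posterior and 6.85, 7.32 and 7.55 in control posterior palate. The groups overlapped almost fully and the difference was -0.06 (SE 0.13, adjusted p = 0.790, 95% interval -0.33 to 0.21). Gli2, the main activator in many tissues, gave 9.0, 9.32 and 9.65 in mutant posterior and 9.14, 9.21 and 9.28 in control posterior palate, a difference of 0.08 (SE 0.10, adjusted p = 0.623). The narrow control posterior values of Gli2 lay inside the mutant posterior range. Deviations of Gli2 from its group means correlated with those of the mesenchyme marker mean at r = 0.84 over 18 arrays, which share the sets described above.

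Gli3 read 9.65, 8.93, 8.82, 9.15, 9.09 and 9.35 on mutant posterior arrays 1 to 6, against 8.91, 8.62, 8.65, 8.82, 8.80 and 8.83 on control posterior arrays 1 to 6. Only the lowest mutant posterior array fell within the control posterior range. The difference was 0.39 (SE 0.11, adjusted p = 0.0275), but a second bright probe set of Gli3 gave 0.15 (adjusted p = 0.547 over all probe sets) and a dim one 0.12. The call of Gli3 was lost in 14 of 30 alternatives, among them the fit to averaged probe sets (0.22, adjusted p = 0.0700), each removal of control posterior array 2, 3 or 5 (adjusted p = 0.0517 to 0.0621), and the mean of the mesenchyme markers as a covariate (0.28, adjusted p = 0.0808). Mesenchyme markers averaged 11.8 to 12.8 on mutant posterior and 11.8 to 12.2 on control posterior arrays, with 2 of 8 called higher and 7 of 8 differences above 0 (median 0.38).

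Markers of other cell types were set beside these values too. All 8 measured cartilage and bone markers had a difference above 0, with a median of 0.77 and none called (limma; 4 had an unadjusted p under 0.05), and their summed linear signal was 5589 to 21196 on mutant posterior and 7992 to 12292 on control posterior arrays. The 3 measured red cell markers summed to 1011 to 3645 on mutant posterior and 5988 to 11468 on control posterior arrays, without overlap. That gap came with Hbb-y, an embryonic beta globin gene, which was lower in the mutants by a log2 difference of -2.93 (adjusted p = 1.88e-06), while Alas2 and Hba-a1 differed by 0.29 and 0.06. Neural marker means ran from 4.94 to 9.63 on mutant posterior and from 7.41 to 8.19 on control posterior arrays. Of 4 neural markers 1 had a difference above 0 and was called. Leukocyte and endothelium markers had differences above 0 in 6 of 6 genes each, with 1 and 0 called, beside 7.73% of all genes called higher. The part of these cell types in the values of Boc, Gli3 and Cdon was not tested, beyond the covariate fits above.

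**Figure D3:**
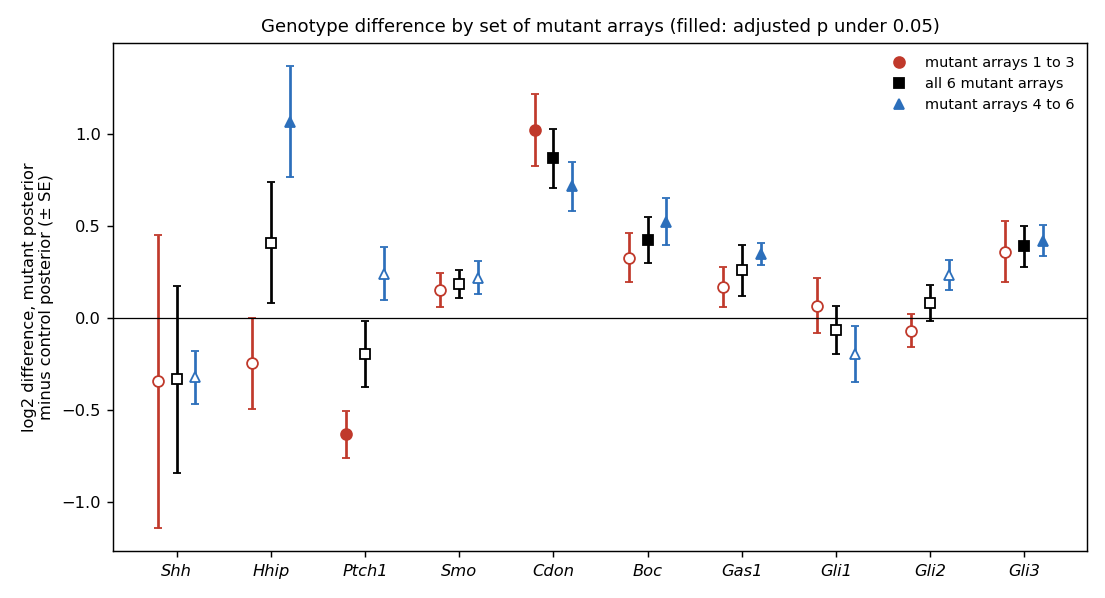
Log2 difference between mutant posterior and control posterior arrays (± SE) for each gene, with mutant arrays 1 to 3 (circles), all 6 (squares) and 4 to 6 (triangles), each against all 6 control posterior arrays; filled symbols have an adjusted p under 0.05. Cdon is filled in all 3 fits, at 1.02, 0.87 and 0.72, while Ptch1 and Hhip change sign between the sets.

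Which members were called thus depended on the set of mutant arrays. With mutant arrays 1 to 3, Cdon was called higher and Ptch1 lower, 2 of 10 members where 22.5% of all genes were called. With mutant arrays 4 to 6, Cdon, Boc, Gas1, Gli3 and Hhip were called higher, 5 of 10 members where 19.7% of all genes were called and 8.86% called higher. When only arrays of equal numbers were compared, arrays 1 to 3 gave Ptch1 alone, lower by a log2 difference of -0.74 (adjusted p = 0.0337). Arrays 4 to 6 gave the same 5 genes as before. The first of these fits called 4.22% and the second 18.8% of all genes. Equal numbers do not match the genotypes by set: hybridisation spike-ins were 11.1 to 11.7 on mutant and 10.2 to 10.3 on control posterior arrays 1 to 3.

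**Figure D4:**
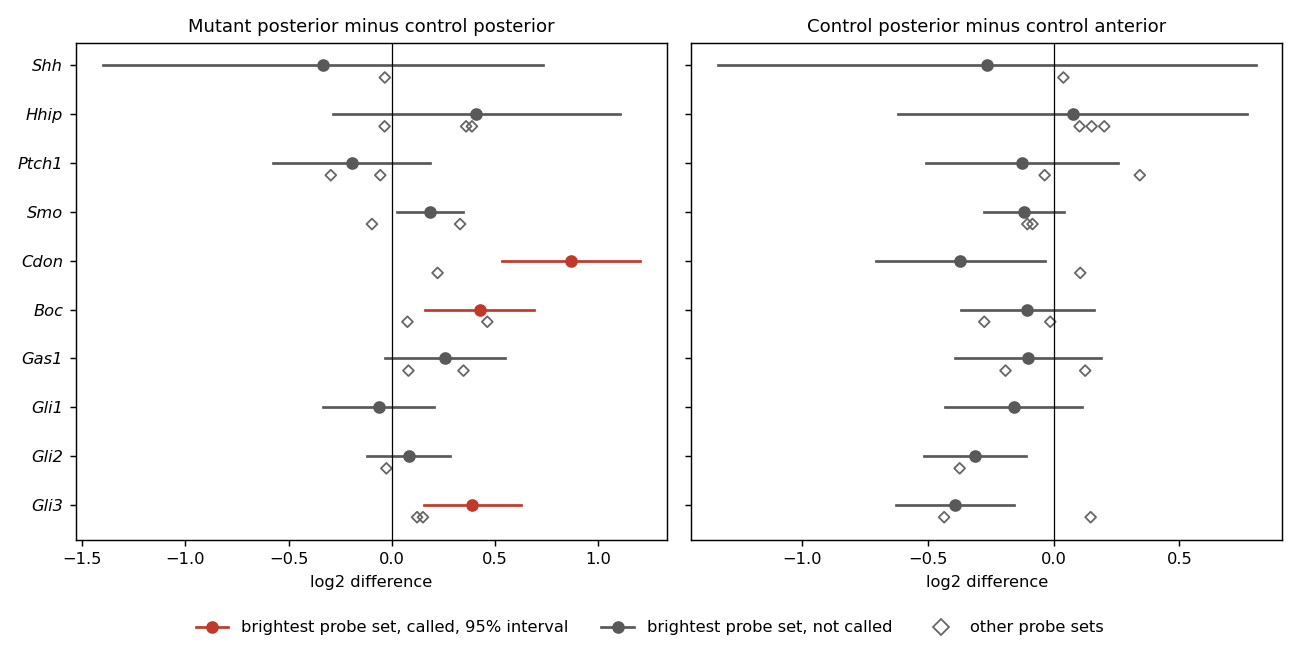
Log2 differences of the 10 genes for mutant posterior minus control posterior (left) and control posterior minus control anterior (right). Circles are the brightest probe set with its 95% interval, red where the adjusted p was under 0.05, and diamonds the other probe sets; 3 genes are red on the left and 0 on the right.

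Other genes of the pathway were taken from lists of its parts. Of 8 measured genes of ligand production and release, 0 were called in mutant against control posterior palate (limma), beside 13.5% of all genes. Unadjusted, 4 had a p under 0.05. The smallest p-values were those of Ihh, a second hedgehog ligand, at 0.46 (adjusted p = 0.0750), and Scube3, a secreted protein of the ligand-releasing Scube family, at -0.50 (adjusted p = 0.0923). Of 4 reception genes, 1 was called, again beside 13.5% of all genes. It was the glypican gene Gpc3, whose product competes for ligand, higher by 0.49 (adjusted p = 0.0221). Gpc3 averaged 11.96 ± 0.27 in mutant posterior and 11.48 ± 0.13 in control posterior palate (SD, n = 6 each). Its groups did not overlap, as for 3.52% of all genes in this direction. The call of Gpc3 was lost without control posterior array 6 (adjusted p = 0.0562), with the 4 sets as a random block (0.114) and with median centring (0.0591). It was also lost with the replicate block (0.0826) and with arrays 1 to 3 of both groups (0.264), where the difference was 0.22.

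Among 15 intracellular regulators, 1 was called, beside 13.5% of all genes. It was Gsk3b, a kinase that acts in the processing of GLI proteins. Gsk3b averaged 9.93 ± 0.08 in mutant posterior and 9.60 ± 0.08 in control posterior palate (SD, n = 6 each). The groups did not overlap, as for 3.52% of all genes in this direction. The difference was 0.32 (adjusted p = 0.0135), and averaging its probe sets gave 0.21 (adjusted p = 0.200). Its call was also lost with the 4 sets as a random block (adjusted p = 0.116), with median centring (0.0528) and with arrays 1 to 3 of both groups (0.123). In that list 13 of 15 differences were above 0, with a median of 0.16 against 0.04 over all genes. Of 19 genes of the primary cilium, the organelle in which SMO signals, 0 were called (limma), again beside 13.5% of all genes. The 2 with an unadjusted p under 0.05 were Ift140 and Ofd1. Ift140, an intraflagellar transport gene, differed by 0.39 (adjusted p = 0.0568). Ofd1, which encodes a protein of the centriole, differed by -0.65 (adjusted p = 0.113).

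Of 16 genes described as hedgehog targets in mesenchyme or other tissues, 2 were higher and 1 lower in mutant posterior palate, beside 13.5% of all genes called either way. Igfbp6, which encodes a binding protein of insulin-like growth factors, averaged 6.77 ± 1.12 in mutant posterior and 5.53 ± 0.28 in control posterior palate (difference 1.23, adjusted p = 0.0317). The nuclear receptor gene Nr2f2 averaged 9.81 ± 0.18 in mutant posterior and 9.50 ± 0.18 in control posterior palate (0.31, adjusted p = 0.0480). The forkhead gene Foxf1 was the lower one, at 7.88 ± 0.14 in mutant posterior and 8.39 ± 0.23 in control posterior palate (-0.51, adjusted p = 0.0399; SD, n = 6 each throughout). With the 4 sets as a random block the calls were lost, at an adjusted p = 0.144 for Igfbp6, 0.197 for Nr2f2 and 0.174 for Foxf1. Averaging probe sets gave 0.03 for Nr2f2 (adjusted p = 0.817) and -0.36 for Foxf1 (0.0717), and 6 to 13 alternatives other than a left-out array ended the call of each gene. Each call was also lost without single arrays: Igfbp6 without control posterior array 1, 4, 5 or 6 or mutant array 1 or 3 (adjusted p = 0.0520 to 0.0762), Nr2f2 without control posterior array 1, 2, 3, 4 or 5 or mutant array 2, 3, 4 or 5 (0.0562 to 0.110), and Foxf1 without control posterior array 1, 2, 3, 4 or 5 or mutant array 1, 3, 4 or 5 (0.0519 to 0.0851).

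Of 11 genes that act upstream of or beside Shh in palate, 2 were higher in mutant posterior palate, beside the same 13.5%. Fgf10, a mesenchymal growth factor that sustains epithelial Shh, averaged 6.04 ± 0.52 in mutant posterior and 5.47 ± 0.11 in control posterior palate (SD, n = 6 each). The groups did not overlap, as for 3.52% of all genes in this direction, and the difference was 0.57 (adjusted p = 0.0379). Bmpr1a, a receptor of bone morphogenetic proteins, differed by 0.22 (adjusted p = 0.0205). The call of Fgf10 was lost without mutant array 6 and without any 1 of the 6 control posterior arrays (adjusted p = 0.0521 to 0.0714), and that of Bmpr1a without control posterior array 4 or 5 (0.0514 to 0.0535). Other alternatives ended the call of Fgf10 in 11 cases and that of Bmpr1a in 9. They included the 4 sets as a random block (adjusted p = 0.221 for Fgf10 and 0.126 for Bmpr1a), centring on the median (0.0571 and 0.0848) or the 75th percentile (0.0713 and 0.0978) and the replicate block (0.0859 and 0.0965).

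The second comparison asked which pathway genes differed between posterior and anterior palate of controls. By their brightest probe sets, the transcription factor genes Gli2 and Gli3 lay lower in all 6 posterior arrays than in any anterior array, at 1.24-fold and 1.31-fold differences. Neither passed the test over all genes in the main fit, whose variance was estimated over the mutant posterior arrays as well. In this fit, made without pairing, 0 of 10 members were called (limma), where 3.82% of all genes were called. Of those calls 44.5% were higher, against 36.6% and 80.2% with arrays centred on the median and on the 75th percentile. Unadjusted, 3 members, Gli2, Gli3 and Cdon, had a p under 0.05. Over single probe sets 0 of 26 were called, where 1.86% of all probe sets were. In 9 of 10 members the difference was below 0, with a median of -0.14 against -0.02 over all genes. This comparison and the one above share the control posterior arrays, so the values of a member in both are not independent.

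Gli2 read 9.26, 9.28, 9.18, 9.24, 9.18 and 9.14 on control posterior arrays 1 to 6, against 9.74, 9.68, 9.43, 9.39, 9.49 and 9.41 on control anterior arrays 1 to 6. The groups did not overlap, as for 3.67% of all genes in this direction, and the difference was -0.31 (SE 0.10, adjusted p = 0.0811). A dimmer Gli2 probe set differed by -0.37 (adjusted p = 0.0677 over all probe sets), with overlap of the groups. Gli3 gave 8.62, 8.81 and 8.91 in control posterior and 9.06, 9.11 and 9.35 in control anterior palate, again without overlap, a difference of -0.39 (SE 0.11, adjusted p = 0.0599). Its second bright probe set differed by -0.43 with overlap of the groups (adjusted p = 0.132 over all probe sets), while its dim probe set gave 0.15.

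Cdon gave 8.67, 8.83 and 9.29 in control posterior and 8.92, 9.25 and 9.71 in control anterior palate, with overlap and a difference of -0.37 (SE 0.16, adjusted p = 0.206). The dimmer Cdon probe set had the opposite sign, 0.11 (adjusted p = 0.491 over all probe sets), so the Cdon probe sets disagreed between the regions. The other 2 co-receptor genes, Boc and Gas1, differed by -0.10 each (adjusted p = 0.695 and 0.739). Shh gave 9.78, 10.10 and 10.42 in control posterior and 9.44, 10.44 and 11.14 in control anterior palate, a difference of -0.27 with a 95% interval of -1.33 to 0.80 (adjusted p = 0.822). The target genes Ptch1 (-0.12, adjusted p = 0.757), Gli1 (-0.16, adjusted p = 0.526) and Hhip (0.08, adjusted p = 0.930) and the transducer gene Smo (-0.12, adjusted p = 0.407) had ranges that overlapped between the regions.

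Control arrays with equal numbers deviated together across genes (r = 0.111 to 0.430, above 0.1 in 6 of 6 pairs), and the replicate number was therefore also used as a block. With this replicate block 3 of 10 members were lower in posterior palate, Gli2 (adjusted p = 0.0105), Gli3 (0.00579) and Cdon (0.0190), where 17.3% of all genes were called and 11.3% called lower. By its brightest probe set, each was lower in the posterior array of 6 of 6 pairs. For Gli2 and Gli3, whose groups did not overlap, any matching of the arrays would give this count. Within pairs the difference lay between -0.48 and -0.15 for Gli2, between -0.64 and -0.26 for Gli3 and between -0.73 and -0.13 for Cdon. Gli1, by contrast, was lower in the posterior array of 3 of 6 pairs. Skeletal muscle markers averaged 9.45 to 10.7 on control posterior and 5.58 to 7.87 on control anterior arrays, which do not overlap, so region and muscle content cannot be told apart. Epithelium markers lay below 0 in 14 of 15 genes, with a median of -0.27 and 0 called without the block (limma; 3 had an unadjusted p under 0.05), and 6 of 15 were called lower with it. Their summed linear signal was 46367 to 63861 on control posterior and 54093 to 86318 on control anterior arrays. With their mean as a covariate, the same 3 members were called lower, where 963 of all 18193 genes were called. With the muscle mean as a covariate, which separates the regions, 0 members were called and 7 of 10 differences lay above 0. That fit called 30 of all genes.

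**Figure D5:**
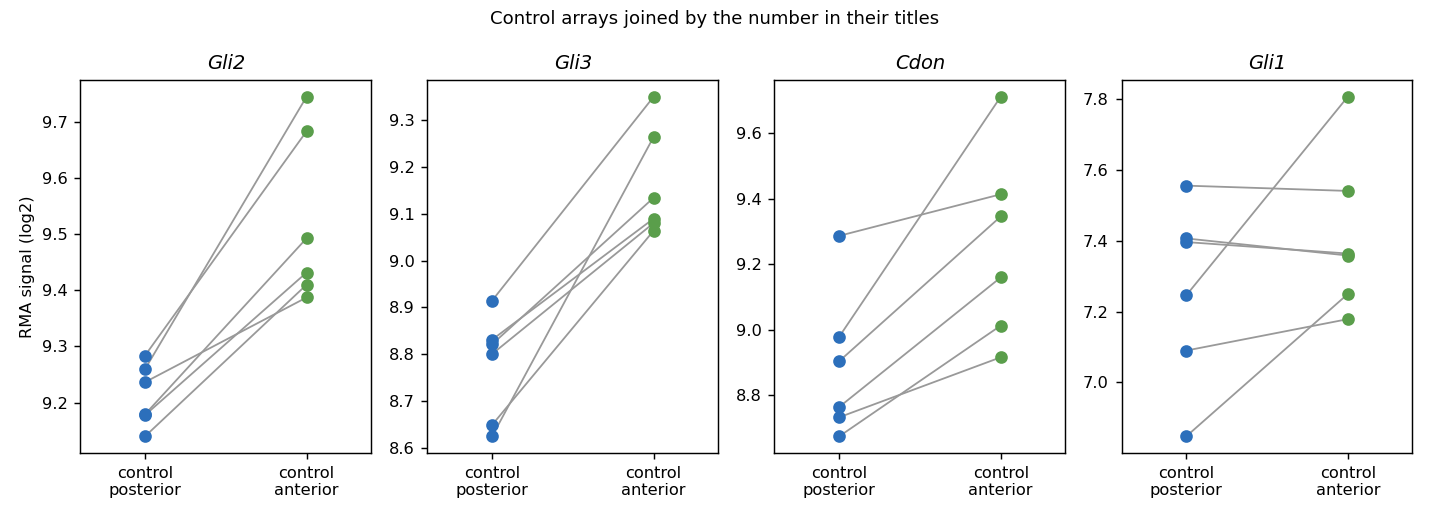
RMA signal (log2) of the brightest probe sets of Gli2, Gli3, Cdon and Gli1 on control posterior (left) and control anterior (right) arrays. Lines join arrays of equal number. All 6 lines are lower on the posterior side for Gli2, Gli3 and Cdon, and 3 of 6 for Gli1. For Gli2 and Gli3 the groups do not overlap, so any joining of the arrays would look the same in this respect.

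Genes around the pathway included larger differences between the regions. Of 11 genes upstream of or beside Shh, 2 were lower in posterior palate and 1 higher, beside 3.82% of all genes called. The homeobox gene Msx1, known from anterior palate mesenchyme, averaged 6.55 ± 0.43 in control posterior and 9.42 ± 0.61 in control anterior palate, a difference of -2.86 (adjusted p = 0.00377). Shox2, a homeobox gene of the same region, averaged 8.77 ± 0.39 in control posterior and 11.17 ± 0.42 in control anterior palate (SD, n = 6 each), a difference of -2.40 (adjusted p = 0.000167). Neither gene's groups overlapped, as for 3.67% of all genes in this direction. With muscle markers as a covariate the call of Msx1 was lost (-4.41, adjusted p = 0.187). The growth factor gene Fgf7 was higher in posterior palate by 0.86 (adjusted p = 0.0285), a call lost without control posterior array 2 or 6 or control anterior array 3, 4 or 5 (0.0640 to 0.0828) and in 4 other alternatives. With the replicate block 5 of the 11 were lower and 2 higher, where 17.3% of all genes were called and 11.3% called lower.

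Of 16 target genes 4 were lower in posterior palate and 0 higher, beside the same 3.82%. They were Foxd2 (-0.96, adjusted p = 0.0355) and Foxf1 (-0.69, adjusted p = 0.0174), both forkhead factors, the T-box factor Tbx2 (-0.63, adjusted p = 0.0137) and the cyclin Ccnd2 (-0.40, adjusted p = 0.00885). Ccnd2 averaged 12.72 ± 0.09 in control posterior and 13.12 ± 0.14 in control anterior palate (SD, n = 6 each) without overlap, again beside 3.67% of all genes. The call of Foxf1 was lost without control posterior array 6 (adjusted p = 0.0510), and that of Foxd2 without control anterior array 1, 2, 3, 4 or 6 or control posterior array 1, 3, 4, 5 or 6 (0.0564 to 0.0830). Other alternatives ended the call of Foxf1 in 3 cases and that of Foxd2 in 4. Averaging the probe sets of Foxd2 gave -0.39 (adjusted p = 0.216). With muscle markers as a covariate, all 4 calls were lost (adjusted p = 0.573 to 0.962). With the replicate block 6 of the 16 were lower and 3 higher, again beside 17.3% called and 11.3% called lower.

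Among 8 ligand production and release genes 1 was called, beside 3.82% of all genes. Scube3 was lower in posterior palate by a log2 difference of -0.93 (adjusted p = 0.00920). It averaged 7.50 ± 0.22 in control posterior and 8.44 ± 0.33 in control anterior palate (SD, n = 6 each). Its groups did not overlap, as for 3.67% of all genes in this direction. The call of Scube3 was lost with muscle markers as a covariate (-0.32, adjusted p = 0.787) and with arrays 1 to 3 of both groups (-0.93, adjusted p = 0.0514). Among 15 intracellular regulators 1 was called, beside the same 3.82%. Gpr161, a ciliary receptor that holds the pathway low, was lower by a log2 difference of -0.59 (adjusted p = 0.0419). Its call was lost without control posterior array 2, 3, 4, 5 or 6 or any 1 of the 6 control anterior arrays (0.0507 to 0.106). It was also lost in 5 other alternatives. Of 4 reception genes 0 were called (limma; Gpc5 alone had an unadjusted p under 0.05), with the glypican genes Gpc5 at -0.68 (adjusted p = 0.0598) and Gpc3 at -0.27 (adjusted p = 0.260).

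Of 19 cilium genes 18 had a difference below 0 between posterior and anterior palate, with a median of -0.24, where 9850 of all 18193 genes lay below 0 and the median was -0.02. Of the cilium genes 0 were called (limma), beside 3.82% of all genes, and 4 had an unadjusted p under 0.05. The smallest p-values belonged to Tulp3, which carries receptors into the cilium (-0.32, adjusted p = 0.149), and Ift140 (-0.35, adjusted p = 0.149). With the replicate block 10 of the 19 were lower and 0 higher, against 11.3% of all genes lower; they included Ift140 (adjusted p = 0.0102) and Tulp3 (adjusted p = 0.0463). Gli1 itself was most like Tab1 (r of deviations = 0.86 over 18 arrays), Erf (0.84), Casp2 (0.81), Cldn15 (0.80) and Bcl2l10 (0.79), with 0.67 to 0.83 without control posterior array 4 and control anterior array 6.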

How the data were processed

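The authors' deposited values are log2 signals made with RMA, per the submitters' processing notes (version not given in the sources used here); background correction, quantile normalization between arrays and a summary per probe set are its steps, yet mutant arrays 1 to 3 kept higher medians (5.87 to 5.90) than all other arrays (5.74 to 5.80). The genome build behind the probe sets is not given in the sources used here. Detection calls and scanner files were not used here, so a dim value may be background, and the number of arrays limits the precision.

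Groups and numbers came from the sample titles. Of 45101 probe sets, 64 were controls, 932 had several symbols and 9160 were unlisted; the brightest of the 34945 with 1 symbol stood for each of 18193 genes, of which 18032 matched a RefSeq table by Entrez number with 0 symbols changed. No offset or filter on dim genes was used.

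Both contrasts came from 1 fit in limma 3.58.1 (R 4.3.3, statmod 1.5.0) over 18 arrays, by lmFit and eBayes, 2-sided, with 15 residual degrees of freedom and Benjamini-Hochberg adjustment over all genes; a gene was called at an adjusted p under 0.05. Single probe sets were tested in a second fit over all 45037 non-control probe sets. The fit was run on simulated data with independent noise and 1 SD per gene over all arrays. The simulation held neither the array sets nor the wider spread among mutant arrays, so it does not check the error rate under these. Replicate numbers were checked for pairing: region pairs correlated at 0.111 to 0.430 in deviations from group means, above 0.1 in 6 of 6 pairs, and genotype pairs at -0.222 to 0.157, above 0.1 in 2 of 6. The pairing comes from the data, not the labels, and control arrays of equal number also share the sets seen in the spike-ins.

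The members and lists were chosen with earlier results of these data known. All members were named; from each other list, up to 4 called genes with the largest difference, or up to 2 with the smallest p; and, for Shh, Ptch1, Gli1 and Cdon, the 5 genes with the highest correlation of deviations, predicted genes passed over. Of 157 listed genes 146 were measured. Alternatives were other choices of probe set, scaling, variance model, threshold, covariate, block and set of arrays, and leaving out each array. Fits by sets for the counts and the mesenchyme covariate were added after seeing the data. Promoter windows came from RefSeq's table, read with Python 3.11.15, and figures were drawn with matplotlib 3.10.9.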

Additional observations from a re-analysis of the deposited data

Results flagged for a closer look

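For Cdon, the value of 10.42 on mutant posterior array 1 stood apart from the other 5 arrays of its group. Its gap to the next value, 9.78, was 0.654 of the group's range, whose lower end was 9.44, above Dixon's critical share for 6 arrays. Of 30 groups of members tested, 1 stood out in this way, and chance gives about 1 in 20. Array 1 of the mutants also had the lowest Shh value, 7.05, and the lowest epithelium marker mean, 9.13.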

How the results depend on the processing

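Precision was limited by 6 arrays per group and by the wider spread among mutant arrays. Over the alternatives run, members kept their direction and their side of the threshold in 249 of 299 genotype values. For region they did so in 253 of 289 values. The causes of the changes below were not tested, except that a stricter threshold calls fewer genes by construction. Fits to fewer arrays called fewer genes in some cases and more in others.

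Genotype called 2449 genes. The count was 4835 when every probe set was tested, 905 at an adjusted p under 0.01, 588 with the 4 sets of arrays as a random block, 1570 with muscle markers as a covariate, 1572 with the 2 compared groups alone, 768 with arrays 1 to 3 of both groups, 4091 with mutant arrays 1 to 3, and 1512 to 2735 with 1 array left out (1592 without control posterior array 4, 1512 without array 5). Genotype called 3 members. The count was 1 with either centring, at 0.01, with the 4 sets, with mesenchyme markers, or with arrays 1 to 3 of both groups; 5 with arrays 4 to 6 of both groups or of the mutants; and 1 to 3 with 1 array left out, 1 of them without control posterior array 5. Centring on the median or the 75th percentile took the share of calls that were higher to 38.5% or 38.2%, against 57.5%.

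Region called 695 genes. The count was 3356 with array weights, 251 at 0.01, 1322 with the 4 sets, 30 with muscle markers (which separate the regions), 1347 with mesenchyme markers, 2151 with the 2 groups alone, 323 with arrays 4 to 6, 3118 with the array sets as a fixed block, and 389 to 751 with 1 array left out (442 and 458 without control anterior array 1 or 3, 450, 437 and 389 without control posterior array 2, 4 or 6). The share of calls higher was 36.6% or 80.2% with the centrings, against 44.5%. Region called 0 members. The count was 1 with the mean of probe sets, with genes above the median level, or with median centring; 2 with the 4 sets, with mesenchyme markers or with the 2 groups alone; 3 with array weights, with epithelium markers or with the fixed block; and 0 with any 1 array left out.

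With the replicate block, 3156 genes and 3 members were called for region, where 3 of 6 posterior arrays correlated best with their own number. For genotype it called 890 genes and 1 member, Cdon, where the numbers do not pair the arrays: 1 of 6 correlated best with its own number.

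Signs changed as follows for genotype, none with a call. Shh was 0.34 with epithelium markers, 0.16 with mesenchyme markers, and -0.72 to 0.21 with 1 array left out. Ptch1 was 0.039 with array weights, 0.036 with muscle markers, 0.35 with arrays 4 to 6 of both groups and 0.24 with mutant arrays 4 to 6. Gli1 was 0.0020 with arrays 4 to 6 of both groups and 0.067 with mutant arrays 1 to 3. Gli2 was -0.054 with mesenchyme markers, -0.096 with arrays 1 to 3 of both groups and -0.069 with mutant arrays 1 to 3; in the same fits Hhip was -0.030, -0.62 and -0.25.

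For region, none with a call, muscle markers gave 0.35 for Shh, 0.82 for Ptch1, 0.14 for Gli2, 0.0015 for Smo, 0.30 for Boc, 0.19 for Gas1, 0.12 for Gpc5, 0.34 for Gpc3, 0.053 for Gpr161 and 0.32 for Tgfbr2. Shh was 0.20 with epithelium markers and 0.15 with arrays 1 to 3, where Gli1 was 0.032. The mean of probe sets gave 0.061 for Ptch1 and 0.046 for Tgfbr2, which was 0.024 with centring on the 75th percentile. Gas1 was 0.10 with arrays 4 to 6. Hhip was -0.0014 with array weights, -0.078 with mesenchyme markers and -0.093 to 0.18 with 1 array left out.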
